A study of Homo sapiens with 6 samples.

Results

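The genes described here are 45 genes of autophagy and the lysosome, measured in HT29 cells, a line derived from a human colon adenocarcinoma. They form a list of autophagy machinery, autophagy receptors, lysosomal membrane proteins, lysosomal enzymes and 3 transcription factors of the MiT family. They are 45 of 19775 genes with a probe set of their own on the HG-U133 Plus 2.0 array. NS398 is a drug selective for COX2, the form of cyclooxygenase that inflammatory and growth signals switch on. Per the methods of the study, 3 samples were exposed to 100 µM NS398, dissolved in DMSO, for 72 h in medium free of serum, and 3 control samples received 0.1% DMSO. All 6 samples were thus of the same cell line and had been deprived of serum, and each was hybridised to 1 array. They are biological replicates in the study's words, but nothing in the labels ties an array to a separate culture, so the p-values reflect only the spread among these samples, which may be technical.

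Autophagy encloses parts of the cytoplasm in a double membrane, the autophagosome, and delivers them to the lysosome, an acidic compartment in which hydrolases break them down. Initiation kinases and a lipid kinase complex start the membrane, proteins of the ATG8 family are attached to it, and receptors such as SQSTM1 (p62) bind ATG8 proteins on one side and cargo on the other. Many of these genes share a promoter element, named CLEAR, that is bound by TFEB, TFE3 and MITF, and starvation of cells for serum or amino acids is a well known trigger of the process.

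The signal of each gene was read from its brightest probe set (highest average of 6 arrays) among those that name the gene alone. Each difference is the mean log2 signal in NS398 arrays less that in control arrays, with its standard error (SE) from limma's variance-trend test, in which the prior variance follows the signal level, and p-values were adjusted across the 54675 probe sets of the array (Benjamini-Hochberg), with 0.05 as the threshold. Genes past this threshold are said to have risen or fallen, in the arrays labelled NS398. Directions follow the deposited labels, and for LAMP3 and LAPTM4B this direction is opposite to that in the study's own list of genes. That list was available here only in part, and the direction it gives for the other genes named below is not reported here. Whether the array labels or the sign of that list are exchanged was not settled from the sources used here, and every rise and fall given below would turn if the labels are exchanged. Of the 45 genes, 8 rose (17.8%) and 0 fell, against 5.23% of all genes that rose and 4.85% that fell. With the labels exchanged, 0 would have risen and 8 fallen, against 4.85% and 5.23% of all genes. These shares of all genes, here and below, include dim genes, while 42 of the 45 had a mean log2 signal above 7. Where only probe sets above 7 were tested, 1402 of 10668 genes were called higher and 1286 lower. Of the 42 genes 8 were then called higher and 1 lower. At an unadjusted p under 0.05 the variance-trend test found 12 of the 45 higher and 3 lower, where 13.2% of all genes were higher and 11.3% lower. Plain limma, whose prior variance is the same at every signal level, called 1 higher and 0 lower, where it called 0.0759% of all genes in either direction. The 8 genes that rose were LAMP3, SQSTM1, MITF, GAA, CTSL, WIPI1, ASAH1 and LAMP2. The median difference of the 45 was 0.05, where that of all genes was 0.06.

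All NS398 arrays lay above all control arrays for 12 of the 45 genes (26.7%, with 17.2% of all genes as background), and all lay below them for 7 (15.6%, with 13.5% as background). The groups overlapped for the other 26. This background was not limited to genes as bright as the 45. With 3 arrays a group, each of these values has limited precision. RNA came from whole cultures, in which a change in the share of cells of a kind and a change in transcript per cell cannot be told apart.

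**Figure D1:**
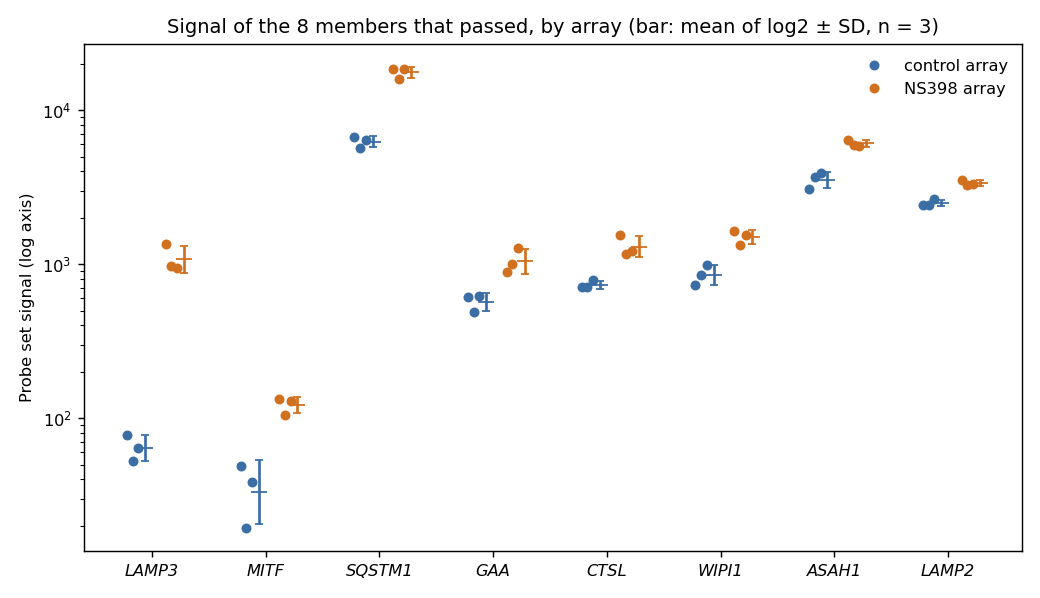
Probe set signal (log axis) of the 8 genes that passed the variance-trend test, with 1 point per array, 3 control (blue) and 3 NS398 (orange), and a bar at the mean of the log2 signals ± SD. The groups do not overlap for any of the 8 genes, and the distance between them is largest for LAMP3, at 77.9 or less in control and 944.8 or more in NS398 arrays.

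The median signal was 65 to 80.2 per array, and arrays of 1 group correlated with r of 0.961 to 0.983 across probe sets (log2 average above 7), against 0.931 to 0.952 for arrays of different groups. Over all probe sets these ranges overlapped, at 0.910 to 0.919 within and 0.904 to 0.912 between groups. Epithelial markers were bright, with EPCAM and KRT18 among those that did not pass the test, but CDX2, an intestinal transcription factor, had a signal of 21.4 to 89.5. CDH1 and KRT19 did not pass either (differences -0.21 and -0.39), but all their NS398 arrays lay below the controls. At an unadjusted p under 0.05 the variance-trend test found 1 epithelial marker higher and 3 lower, where 13.2% of all genes were higher and 11.3% lower. Of the 8 epithelial markers KRT20 rose and VIL1 fell (the latter call was lost where its probe sets were averaged), and their summed signal was 108518 to 123031 in control and 125509 to 133233 in NS398 arrays. Sums over 8 leukocyte markers were 275.8 to 574.3 and 507.6 to 603.3, and over 4 endothelial markers 165.1 to 271.4 and 219.9 to 291.2, and 0 of either list passed by the variance-trend test or plain limma (1 leukocyte and 0 endothelial markers at an unadjusted p under 0.05). PTPRC, the pan-leukocyte antigen, read 2.2 to 43.1 in all arrays, and none of the markers was listed at 0. Sums over 6 fibroblast markers were 449.1 to 594.1 in control and 700.7 to 888.8 in NS398 arrays, and LUM rose among them. The 3′/5′ ratio of the ACTB control probe sets, a sign of RNA integrity, was 1.29 ± 0.03 (SD, n = 3) in control and 1.56 ± 0.13 in NS398 arrays (p = 0.1 by a two-sided exact permutation test, which can give no smaller p with 3 arrays a group). That of GAPDH was 1.03 ± 0.06 and 1.10 ± 0.09 (n = 3 each, exact permutation p = 0.5). The signal of the 18S rRNA control probe set was 3453.4 to 4856.4 in control and 4825.4 to 23625.3 in NS398 arrays (exact permutation p = 0.2). The part of these values and of the LUM signal in the differences below was not tested.

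The promoters of members were searched for the CLEAR core TCACGTGA, on either strand, in windows from 250 bases before to 50 bases after each start site in the RefSeq table for GRCh38.p14. Of the 45 genes, 38 were in the table, and 5 of them held the core (13.2%, namely ATG3, LAMP1, MCOLN1, CTSA and GAA), against 1.18% of all 27305 genes in the table. Of the 8 genes that rose 5 were in the table, and GAA held the core. The shorter E-box CACGTG, which lies within the core, was in 9 of the 38 (23.7%) and in 8.77% of all genes. The antioxidant response element TGACNNNGC, bound by NRF2, was in 10 of the 38 (26.3%) and in 16.1% of all genes, and CTSL and GAA held it among those that rose. The match in GAA overlaps the first CLEAR core there and shares its letters TCA. The amino acid response element TGATGNAAN, bound by ATF4, was in 0 of the 38 and in 4.45% of all genes. A match of letters is a description and shows no binding. The 100 bases before the start site, all on the plus strand, are given for GAA and CTSL, which rose, and for MCOLN1 and CTSA, which held the core but did not pass the test. Capitals mark the CLEAR core in the first 3 and the antioxidant response element, read on the opposite strand, in CTSL.
GAA, chr17:80101481-80101580: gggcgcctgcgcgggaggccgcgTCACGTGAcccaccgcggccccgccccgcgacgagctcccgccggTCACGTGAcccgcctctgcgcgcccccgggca
MCOLN1, chr19:7522524-7522623: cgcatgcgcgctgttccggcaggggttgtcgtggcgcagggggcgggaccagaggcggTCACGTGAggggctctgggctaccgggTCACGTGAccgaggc
CTSA, chr20:45891235-45891334: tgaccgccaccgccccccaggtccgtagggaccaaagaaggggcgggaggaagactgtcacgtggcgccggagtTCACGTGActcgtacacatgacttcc
CTSL, chr9:87726019-87726118: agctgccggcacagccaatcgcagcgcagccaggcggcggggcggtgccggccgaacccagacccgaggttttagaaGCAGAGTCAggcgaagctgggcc

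LAMP3, an inducible lysosomal membrane glycoprotein, had the largest difference of the 45 genes. Its signal was 77.9, 52.5 and 64.1 in the control arrays and 1360.3, 971.0 and 944.8 in the NS398 arrays, so every NS398 array was far above every control array. LAMP3 rose 16.8-fold, by 4.07 ± 0.24 on the log2 scale (SE, variance-trend limma, adjusted p = 6.9e-06). The control signals were close to the array medians (65 to 80.2), so the fold depends on how a low signal is read, and with an offset of 32 the difference was 3.53. LAMP3 was the member that also passed plain limma (adjusted p = 0.0396), and it passed under all 16 alternative settings tried (adjusted p = 1.1e-06 to 0.0396).

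The other lysosomal membrane genes differed little. LAMP2, which with LAMP1 makes up much of the lysosomal membrane protein, read 2413.7, 2427.1 and 2640.2 in control and 3540.1, 3264.2 and 3336.0 in NS398 arrays. LAMP2 rose by 0.44 ± 0.10 (SE, adjusted p = 0.0271), and the groups did not overlap. This call rested on the whole set of arrays. It was lost without control replicate 2 (adjusted p = 0.0732), control replicate 3 (0.0664), NS398 replicate 1 (0.124), NS398 replicate 2 (0.0960) or NS398 replicate 3 (0.0729), with differences of 0.41 to 0.48, and was kept without control replicate 1. It was also lost with median centring (difference 0.32, adjusted p = 0.309) and where all its probe sets were averaged (0.35, adjusted p = 0.0923). LAMP1 differed by 0.03, with signals of 17382.0 to 20416.8 over both groups. MCOLN1, a calcium channel of the lysosome, differed by 0.25 and NPC1, which exports cholesterol, by 0.28, and neither passed, although the NPC1 groups did not overlap. CD63, a tetraspanin, differed by -0.16 (adjusted p = 0.364), with all NS398 arrays below the controls. In all, 2 of the 6 membrane genes rose and 0 fell (median difference 0.27), where 5.23% of all genes rose and 4.85% fell.

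Of the 4 autophagy receptors among the 45 genes 1 rose, SQSTM1 (25.0%, where 5.23% of all genes rose). Its signal was 6671.8, 5688.9 and 6435.7 in control and 18382.1, 15989.3 and 18443.6 in NS398 arrays. The lowest NS398 array was thus well above the highest control array. SQSTM1 rose 2.81-fold, by 1.49 ± 0.10 (SE, adjusted p = 1.8e-05), and it passed in 15 of the 16 alternative settings (adjusted p over all 16 between 9.7e-06 and 0.0716, the highest from plain limma). The other receptors of this group did not pass, while 2 of 9 autophagy receptors outside the 45 genes rose, as given below. NBR1, a relative of SQSTM1, differed by -0.20 (adjusted p = 0.298), with groups that did not overlap. OPTN, a receptor in the removal of mitochondria and bacteria, differed by -0.01 and TOLLIP, a ubiquitin-binding adaptor, by -0.04, and both overlapped between groups. The median of the 4 receptors was -0.03.

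The 3 listed transcription factors of the MiT family all read higher in NS398 arrays by their brightest probe sets, but at low signals for MITF and TFEB. MITF read 49.2, 19.4 and 38.3 in control and 133.2, 105.6 and 128.7 in NS398 arrays. The groups did not overlap, and MITF rose by 1.88 ± 0.47 (SE, adjusted p = 0.0383). This probe set was the brightest of MITF only through the NS398 arrays, so its choice favoured a rise. In control arrays its geometric mean was 33.2, below the 43.8 of another MITF probe set, and in NS398 arrays 121.9 against 66.7. That other set differed by 0.61 and was not called (adjusted p = 0.562, variance-trend limma). Of 15 alternative settings that tested it MITF passed in 5, and it was lost without control replicate 2 (adjusted p = 0.0636), control replicate 3 (0.0827), NS398 replicate 1 (0.156), NS398 replicate 2 (0.105) or NS398 replicate 3 (0.131), where the difference was 1.49 to 1.98. It was also lost with median centring (adjusted p = 0.0595), with quantile normalisation (0.0536) and where its probe sets were averaged (difference 0.44). Over all 15 settings its adjusted p ranged from 0.0263 to 0.769. TFE3 read 2180.5, 1667.6 and 1694.9 in control and 2541.0, 2254.3 and 2646.2 in NS398 arrays. It differed by 0.43 ± 0.13 (SE) and did not pass (adjusted p = 0.0908), although it passed without control replicate 1 (difference 0.56, adjusted p = 0.0159). Over 16 settings the adjusted p of TFE3 was 0.0159 to 0.401, and it passed in 2. TFEB, the best known regulator of lysosomal genes, read 209.2, 147.9 and 139.3 in control and 232.7, 241.4 and 267.4 in NS398 arrays. It differed by 0.60 ± 0.24 (SE) and did not pass (adjusted p = 0.206). Their activity is set largely by movement between lysosome and nucleus, which these arrays do not measure.

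**Figure D2:**
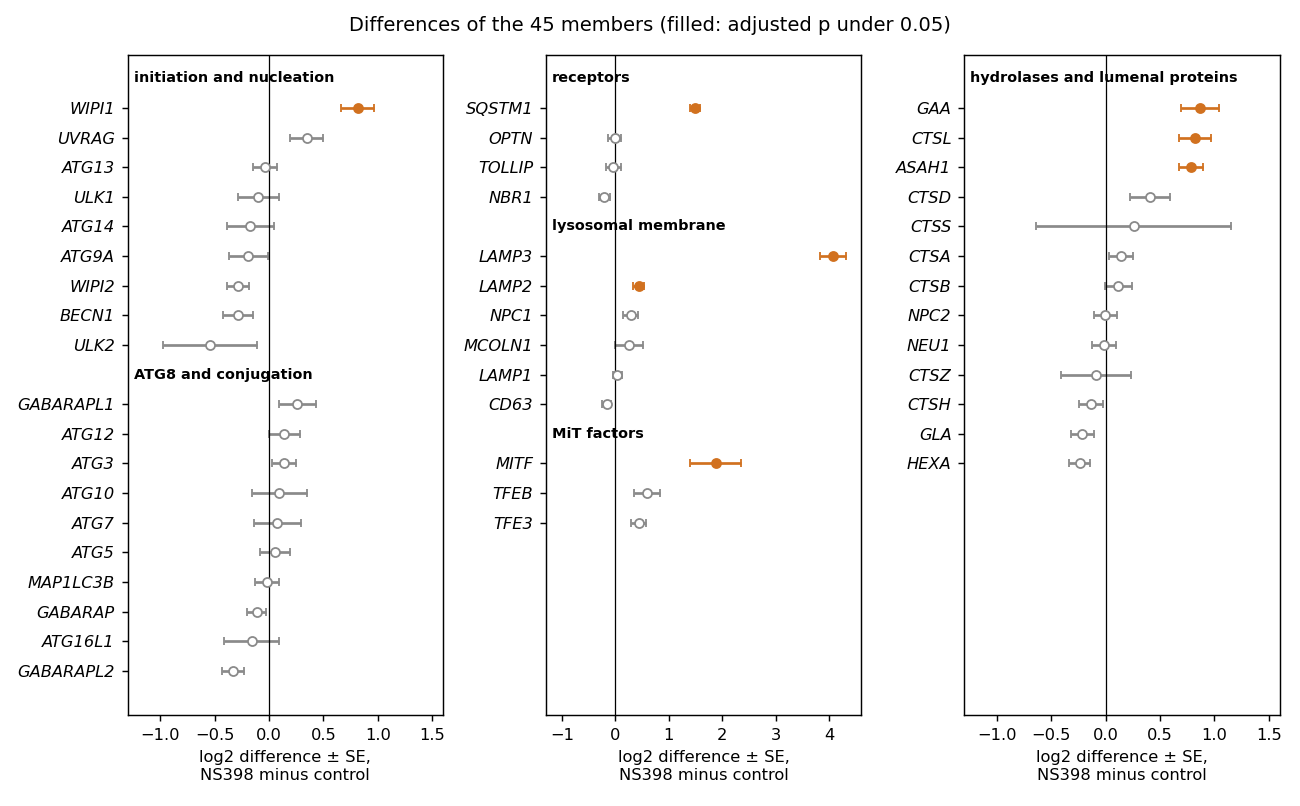
log2 difference (NS398 minus control) ± SE of each of the 45 genes by group, filled where the adjusted p is under 0.05; the middle panel has a wider axis. In the 37 genes that did not pass, differences lie between -0.54 (ULK2) and 0.60 (TFEB).

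Of the 13 hydrolases and lumenal proteins, 3 rose (23.1%) and 0 fell, against 5.23% and 4.85% of all genes. GAA, which degrades glycogen in the lysosome, read 609.6, 489.3 and 621.0 in control and 886.3, 997.6 and 1279.4 in NS398 arrays. It rose 1.83-fold, by 0.87 ± 0.17 (SE, adjusted p = 0.0125), and was lost without NS398 replicate 2 (adjusted p = 0.0508) or NS398 replicate 3 (0.0546), at differences of 0.90 and 0.72. With each array centred on its median signal, GAA differed by 0.75 (adjusted p = 0.0633), and its adjusted p ranged from 0.0063 to 0.192 over the 16 settings.

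CTSL, a cysteine protease, read 712.4, 708.9 and 788.3 in control and 1554.2, 1172.4 and 1209.0 in NS398 arrays. The groups did not overlap, and CTSL rose 1.77-fold, by 0.82 ± 0.15 (SE, adjusted p = 0.0073). ASAH1, the acid ceramidase, read 3077.6, 3692.1 and 3879.3 in control and 6437.5, 5959.7 and 5874.8 in NS398 arrays, again with no overlap. ASAH1 rose 1.72-fold, by 0.78 ± 0.11 (SE, adjusted p = 0.0018). Both were lost with plain limma (adjusted p = 0.164 for CTSL and 0.157 for ASAH1), and ASAH1 also where all its probe sets were averaged (difference 0.46, adjusted p = 0.177), while CTSL passed in the other 15 settings.

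The other 10 enzymes and lumenal proteins did not pass, with differences of -0.24 to 0.41. CTSD, the main aspartic protease of the lysosome, differed by 0.41 (adjusted p = 0.269), but its control arrays spread from 953.5 to 1660.8. CTSB and CTSH, further cysteine proteases, differed by 0.12 and -0.13, and CTSA, a carboxypeptidase that protects other enzymes, by 0.14. CTSS was close to the lower end of the scale, at 9.2 to 73.7 in all arrays, and CTSZ differed by -0.09 with control signals from 398.4 to 1140.1. GLA, which removes galactose from glycolipids, differed by -0.21 (adjusted p = 0.324) and HEXA, a subunit of hexosaminidase A, by -0.24 (adjusted p = 0.199), and all NS398 arrays were below the controls for both. NEU1, a sialidase, and NPC2, a soluble carrier of cholesterol, differed by -0.01 and -0.005. The median of the 13 was 0.12.

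WIPI1 stood alone among the 9 genes of initiation and membrane nucleation. The WIPI proteins bind the lipid that marks the forming autophagosome. WIPI1 read 735.4, 852.4 and 991.0 in control and 1640.0, 1340.6 and 1542.5 in NS398 arrays. The groups did not overlap and WIPI1 rose 1.76-fold, by 0.82 ± 0.15 (SE, adjusted p = 0.0079), with adjusted p of 0.0039 to 0.176 over 16 settings, of which plain limma alone lost the call. Its paralog WIPI2 read 4386.0, 4592.3 and 4782.7 in control and 3614.5, 3598.1 and 4126.9 in NS398 arrays. WIPI2 thus lay lower in every NS398 array, but the difference of -0.28 ± 0.10 (SE) did not pass (adjusted p = 0.152).

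The kinases and lipid kinase subunits did not pass either. ULK1 and its partner ATG13 differed by -0.10 and -0.04, with overlapping groups. ULK2 differed by -0.54 ± 0.43 (SE, adjusted p = 0.580) at signals of 40.2 to 73.9, and all NS398 arrays were below the controls. BECN1, a core subunit of the lipid kinase complex, differed by -0.29 (adjusted p = 0.314), and ATG14 and UVRAG, which define its alternative forms, by -0.17 and 0.35. ATG9A, the membrane protein of the vesicles that seed the autophagosome, differed by -0.19. In this group 7 of 9 differences were negative (median -0.17). Of the 9, 1 gene rose (11.1%) and 0 fell, against 5.23% and 4.85% of all genes. At an unadjusted p under 0.05 the variance-trend test found 2 higher and 1 lower, with 13.2% and 11.3% of all genes as background.

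None of the 10 ATG8 proteins and conjugation enzymes passed in either direction by the variance-trend test or plain limma, and at an unadjusted p under 0.05 the variance-trend test found 0 of the 10 higher and 1 lower, with 13.2% and 11.3% of all genes as background. Their differences were between -0.33 and 0.26 (median 0.07). MAP1LC3B, the LC3 protein by which autophagosomes are usually detected, read 2394.3, 2597.2 and 2801.4 in control and 2596.4, 2675.9 and 2403.6 in NS398 arrays. These groups overlapped (difference -0.02 ± 0.11, SE, adjusted p = 0.953). GABARAPL2 read 5430.1, 5884.9 and 6053.8 in control and 4701.0, 4906.0 and 4205.6 in NS398 arrays. Every NS398 array was below every control array, but GABARAPL2 did not pass (difference -0.33 ± 0.10, SE, adjusted p = 0.0860). It was called lower without control replicate 1 (adjusted p = 0.0473) and where dim probe sets (log2 average of 7 or less) were left out of the test (0.0382), and over the 16 settings its adjusted p was 0.0382 to 0.426.

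GABARAP differed by -0.11, and GABARAPL1 by 0.26 with groups that did not overlap (adjusted p = 0.469). The activating enzyme ATG7 differed by 0.08, the conjugating enzymes ATG3 and ATG10 by 0.14 and 0.10, and ATG12, ATG5 and ATG16L1, which form the complex that attaches ATG8 proteins to lipid, by 0.14, 0.05 and -0.16. The groups overlapped for these 6 genes and for GABARAP.

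Several probe sets of a gene did not always give the same difference. The 45 genes have 111 probe sets, 17 genes with 1 and 28 with several (up to 5), and 14 of the 111 were called higher and 1 lower, against 3.26% and 3.17% of all probe sets. Among the 66 that were not the brightest, 6 were called higher and 1 lower. The 5 of SQSTM1 differed by 1.49, 0.91, 2.39, 0.49 and -0.08, and the first 3 were called. Both probe sets of WIPI1 were called (0.82 and 0.79). Of the 4 probe sets of LAMP2, those at 0.44 and 0.61 were called, and those at 0.38 and -0.04 were not. ASAH1 had 5, at 0.78 and 0.76 (both called), 0.33, -0.41 and 0.83, the last at signals of 5.4 to 35.6.

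For MITF the other probe sets differed by 0.61 and -1.18 and were not called, and the second of these read 1.3 to 34.0. WIPI2 had 5 probe sets, all with negative differences, and the one at -0.42 ± 0.11 (SE) was called lower (adjusted p = 0.0444). CTSZ had a dim probe set with 18.6, 20.3 and 14.7 in control and 98.5, 87.4 and 59.4 in NS398 arrays. That set was called higher (2.18 ± 0.58, SE, adjusted p = 0.0490), where the brightest set of CTSZ was at -0.09. Averaged over its probe sets, CTSZ was called higher (difference 1.04, adjusted p = 0.0466, highest adjusted p over 16 settings 0.994). Of the 111 probe sets 29 had a mean log2 signal under 7.

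**Figure D3:**
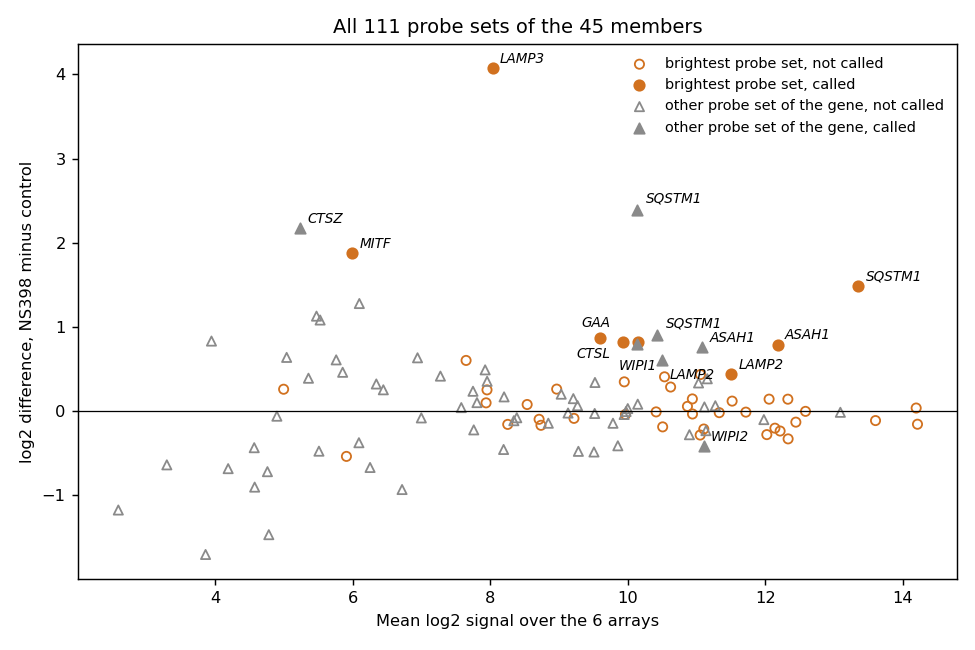
log2 difference (NS398 minus control) of all 111 probe sets against their mean log2 signal over the 6 arrays, with circles for the brightest set of each gene, triangles for its other sets and filled symbols for an adjusted p under 0.05. SQSTM1 has 3 called sets, from 0.91 to 2.39, and most other sets above a mean log2 signal of 7 lie close to 0.

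Another 99 genes of the same pathways were listed for comparison, and 91 of them had a probe set of their own, while the other 8 were not analysed here. Of the 91, 5 rose (5.49%) and 3 fell (3.30%), close to the background of 5.23% and 4.85% of all genes, and their median difference was 0.02. The 16 subunits of the V-ATPase, the proton pump that acidifies the lysosome, had differences of -0.35 to 0.60, and 0 passed by either test. At an unadjusted p under 0.05 the variance-trend test found 2 of them higher and 1 lower. Of 18 other genes of autophagosome formation 0 passed by either test, with 1 higher and 2 lower at an unadjusted p under 0.05. At that threshold 13.2% of all genes were higher and 11.3% lower.

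Among 9 other autophagy receptors 2 rose and 0 fell, where 5.23% of all genes rose and 4.85% fell. CCPG1, a receptor for the autophagy of endoplasmic reticulum, read 276.4, 285.1 and 316.1 in control and 1769.6, 1021.0 and 1037.7 in NS398 arrays. CCPG1 rose by 2.08 ± 0.21 (SE, adjusted p = 0.0003). CALCOCO2, a receptor for bacteria and mitochondria, rose by 0.70 ± 0.11 (SE, adjusted p = 0.0030), with 1654.3 to 1904.3 in control and 2812.3 to 2883.8 in NS398 arrays. The call was lost where all its probe sets were averaged (difference 0.41, adjusted p = 0.257). At an unadjusted p under 0.05 the variance-trend test found 2 of the 9 higher and 2 lower, where 13.2% of all genes were higher and 11.3% lower. Of 12 genes of fusion with the lysosome 1 fell, VAMP8, a SNARE protein of that step, by 0.60 (difference -0.60 ± 0.10, SE, adjusted p = 0.0034). Thus 0 of the 12 rose and 8.33% fell, against 5.23% and 4.85% of all genes. At an unadjusted p under 0.05 the variance-trend test found 3 of the 12 higher and 2 lower, with the same 13.2% and 11.3% as background.

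Of 25 further lysosomal enzymes and cofactors 2 rose (8.0%) and 1 fell (4.0%), against 5.23% and 4.85% of all genes. LIPA, the acid lipase, rose by 0.68 ± 0.14 (SE, adjusted p = 0.0123) and IDS, a sulfatase, by 0.56 ± 0.14 (adjusted p = 0.0330). Both reversed where all probe sets of a gene were averaged, to -0.30 for LIPA and -0.26 for IDS. LIPA was lost without NS398 replicate 1 (adjusted p = 0.0673) or NS398 replicate 2 (0.0766), and IDS without any 1 of the 6 arrays (0.0501 to 0.127). SMPD1, the acid sphingomyelinase, which makes ceramide where ASAH1 degrades it, read 311.9, 405.2 and 468.0 in control and 131.6, 163.8 and 191.4 in NS398 arrays. SMPD1 fell by 1.28 on the log2 scale (SE 0.24, adjusted p = 0.0087), and this was lost without control replicate 3 (difference -1.15, adjusted p = 0.0604) and where all its probe sets were averaged (-0.48, adjusted p = 0.652). Of 11 other membrane and sorting genes, SLC17A5, which exports sialic acid, rose by 0.75 ± 0.14 (SE, adjusted p = 0.0082), and LAPTM4B, a lysosomal membrane protein, fell by 0.63 (SE 0.10, adjusted p = 0.0035). These calls are 9.09% in each direction, against 5.23% and 4.85% of all genes. At an unadjusted p under 0.05 the variance-trend test found 5 of the 11 higher and 1 lower, where 13.2% of all genes were higher and 11.3% lower. All NS398 arrays lay above the controls for 45.5% of the 11 and below for 9.09%, against 17.2% and 13.5% of all genes. Median centring ended the calls of SLC17A5 (difference 0.63, adjusted p = 0.0588), LIPA (0.56, adjusted p = 0.0781) and IDS (0.43, adjusted p = 0.197).

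**Figure D4:**
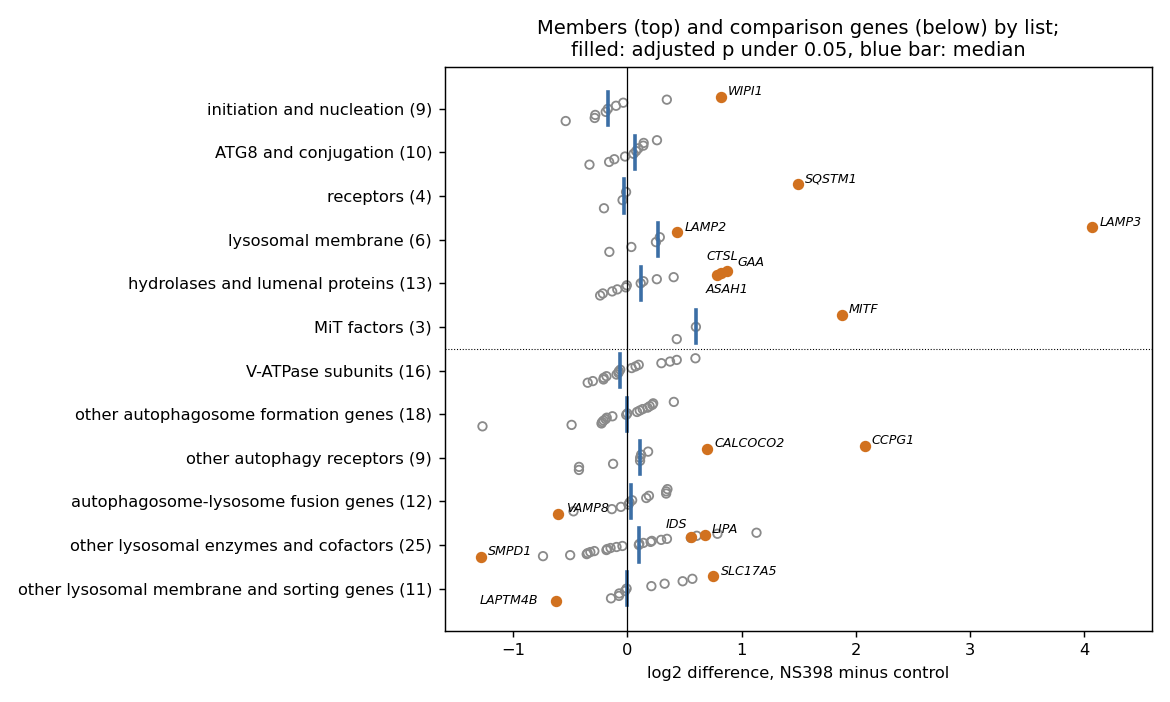
log2 difference (NS398 minus control) of the 45 members in 6 groups (above the dotted line) and the 91 comparison genes in 6 lists (below), 1 point per gene, filled and named where the adjusted p is under 0.05, with the median of each list as a blue bar. The number of genes stands in brackets, and the medians of all 12 lists but the MiT factors lie between -0.17 and 0.27.

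How far each of the 8 calls depended on the processing is shown by setting. LAMP3 passed in every setting, SQSTM1, WIPI1 and CTSL in 15 of 16, ASAH1 in 14, GAA in 12, LAMP2 in 7 of 16 and MITF in 5 of 15. These counts are not fully alike. LAMP3 met the filter on a log2 average above 7 only through its NS398 arrays. LAMP3, CTSL and GAA have 1 probe set each, so averaging probe sets could not change their differences, while it ended the calls of ASAH1, LAMP2 and MITF. All 8 differences stayed above 0 in every setting that tested them. Plain limma, the filters on dim probe sets and the replicate block leave a difference as it is, so its sign could not turn there. Median centring lowered each difference on the array by 0.12 on the log2 scale, so that the median of all genes was -0.06, and it left 5 of the 8 called.

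**Figure D5:**
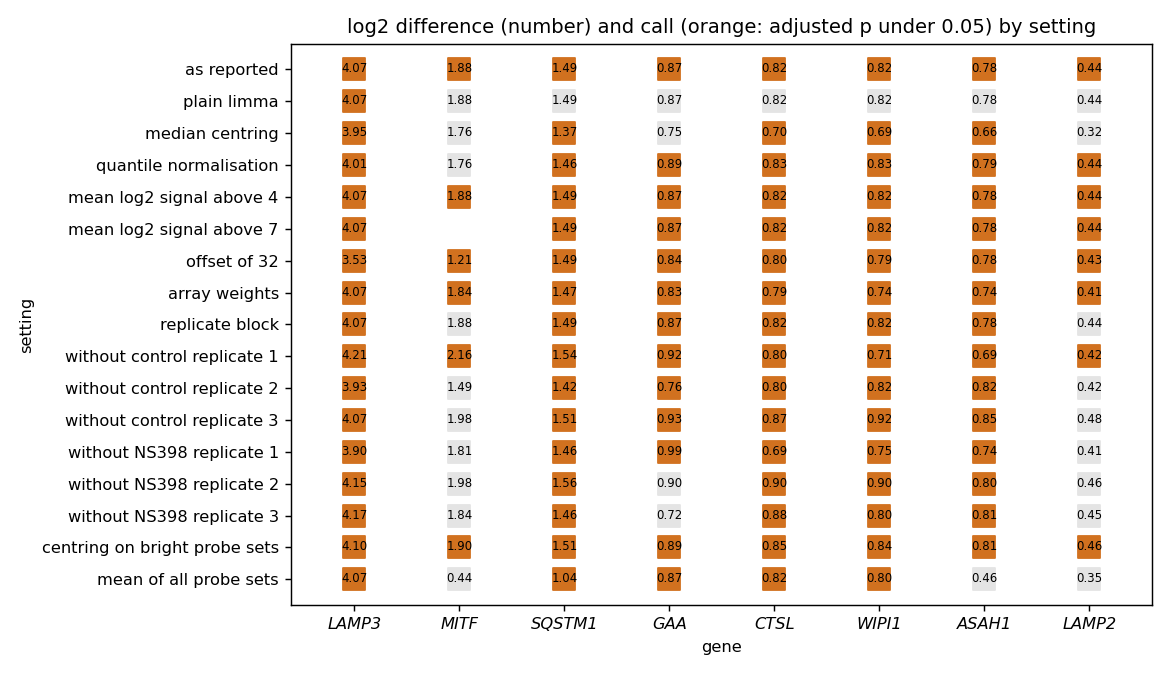
log2 difference (number in each square, NS398 minus control) of the 8 genes that rose, as reported and under 16 alternative settings, in orange where the adjusted p is under 0.05 and grey where it is not. MITF has no square where its mean log2 signal fell below the filter, and the columns of LAMP2 and MITF hold more grey than orange squares.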

How the data were processed

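Total RNA of 6 HT29 samples (3 control, 3 NS398, grouped by the sample titles) was hybridised to Affymetrix HG-U133 Plus 2.0 arrays. The deposited values are linear intensity values, 1 signal per probe set and array, which the authors had summarised and scaled. Each array has a trimmed mean of 500 after removal of 2% at either end, as MAS 5.0 signals do, while the medians differ between arrays, so the values are not the quantile-normalised gcRMA output that the study's methods name. Of tools, the submitters' processing notes name affy without a version. The log2 of each signal was taken as it stood, without an offset or another normalisation.

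Probe sets were named through the platform annotation, with symbols updated by Entrez number through the RefSeq table. Of 54675 probe sets 41097 name 1 gene, 1801 several and 11777 none. For each gene the brightest of the probe sets that name it alone was used. All probe sets were tested two-sided in limma 3.58.1 under R 4.3.3 (lmFit, then eBayes with a variance trend and robust estimation), in a model of treatment only, with Benjamini-Hochberg adjustment across the whole array. The study's permutation statistic (SAM) was not used. Control probe set ratios were compared by exact permutation.

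The members, the gene lists, the tests and the alternatives were chosen with earlier results of these data known. All 45 members are named, with the signal in every array for those called, and in each comparison list up to 4 called genes with the smallest p. The members described by every array though not called, the probe sets of WIPI2 and CTSZ, and the markers named were picked after their values were seen. The alternatives were plain limma, median centring, quantile normalisation, filters on dim probe sets (log2 average above 4 or 7), an offset of 32, array weights, the replicate number as a block, a gene's probe sets averaged, and leaving out each of the 6 arrays. Centring on bright probe sets was added after the data were seen. The procedure was tested on simulated data. Figures were made with Python 3.11.15 and matplotlib 3.10.9.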

Additional observations from a re-analysis of the deposited data

How the results depend on the processing

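Of 717 comparisons of a member's difference with an alternative setting, 637 kept their direction and their side of the threshold, 28 lost a call, 4 gained a call and 48 turned in sign, the last only for members that were not called as reported (CTSZ both turned and was called where its probe sets were averaged). Plain limma, the filters on dim probe sets and the replicate block leave a difference as it is, so it could not turn there. Nor could it under averaging for the 17 members with 1 probe set. The causes of the changes were not tested. Over all probe sets 3513 calls became 24 with plain limma, and the 8 members that rose became 1 (LAMP3) with plain limma and 5 with median centring. As reported 1782 probe sets were higher and 1731 lower, and with median centring 864 and 1943. Leaving out each array gave 1826 to 3984 calls, 5 to 9 members higher and 0 to 1 lower. There were 5 members higher without NS398 replicate 2 or NS398 replicate 3, and 1 lower (GABARAPL2) without control replicate 1. With a mean log2 signal above 7, 1 member was lower. Calls over all probe sets were 1826, 1896 and 2340 without NS398 replicates 1, 2 and 3 and 1876 without control replicate 3. Comparison genes called higher, 5 as reported, were 0 with plain limma, 2 with median centring, 9 with a mean log2 signal above 7, 2 with the mean of all probe sets and 3 to 5 without each array (3 without NS398 replicate 1 or 2), and those called lower, 3 as reported, were 0 with plain limma, 5 with a mean log2 signal above 7 and 2 to 5 without each array (5 without control replicate 2). The labels do not say whether same-numbered arrays are pairs, and they were not treated as such. Same-numbered arrays deviated from their group means with correlations of -0.14, -0.06 and -0.10, and differently numbered ones with -0.03 to 0.10. These values do not settle the pairing. With the replicate number as a block 2462 probe sets and 6 of the 8 members were called, without LAMP2 (adjusted p = 0.0880) and MITF (0.0612).

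The median difference of all members was -0.067 with median centring, 0.015 with array weights and 0.0086 to 0.046 without each array. With median centring that of initiation and nucleation genes was -0.29, of ATG8 and conjugation genes -0.056, of receptors -0.15 and of lysosomal membrane genes 0.15, and with the mean of all probe sets receptors were at 0.073 and lysosomal membrane genes at 0.18. Without each array in turn, initiation and nucleation genes ranged from -0.21 to -0.026 and lysosomal membrane genes from 0.19 to 0.38.

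Differences that turned were small in most settings. Median centring turned ATG5 to -0.067, ATG7 to -0.045, ATG10 to -0.025, LAMP1 to -0.087 and CTSB to -0.0045. Array weights turned ATG10 to -0.0053, OPTN to 0.015 and CTSS to -0.019. Centring on bright probe sets, chosen after seeing the data, turned MAP1LC3B to 0.0038, OPTN to 0.013, NEU1 to 0.010 and NPC2 to 0.019. The mean of all probe sets turned ATG13 to 0.013, MAP1LC3B to 0.021, ATG3 to -0.40, ATG7 to -0.25, ATG16L1 to 0.56, TOLLIP to 0.22, LAMP1 to -0.14, CTSS to -0.78 and CTSZ to 1.04, and, among comparison genes, IDS to -0.26 and LIPA to -0.30. Without each array in turn the difference of ULK1 was -0.20 to 0.031, of ATG14 -0.39 to 0.014, of MAP1LC3B -0.078 to 0.036, of ATG5 -0.027 to 0.18, of ATG7 -0.076 to 0.28, of ATG10 -0.13 to 0.23, of ATG12 -0.011 to 0.23 and of ATG16L1 -0.34 to 0.046. That of OPTN was -0.073 to 0.039, of TOLLIP -0.13 to 0.023, of LAMP1 -0.011 to 0.10, of CTSS -0.57 to 0.90, of CTSZ -0.40 to 0.36, of NEU1 -0.082 to 0.065 and of NPC2 -0.086 to 0.067.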
